A study of Mus musculus with 32 samples.

Results

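The Notch receptors of the mouse are encoded by Notch1, Notch2, Notch3 and Notch4, and these 4 genes were taken from the 55357 genes of a count table of brain arteries by matching Ensembl identifiers to symbols. The table holds 32 libraries, 1 per mouse, in 4 groups of 8. Notch3-/- mice, in which both copies of the gene are inactivated, and Notch3+/+ mice were 3 months old, whereas TgNotch3R169C mice and non-Tg mice were 12 months old. The transgene is a genomic fragment with rat Notch3 that carries an arginine-to-cysteine change, and it is present in addition to the mouse Notch3 gene, which the non-Tg mice also carry. Both lines had been backcrossed onto a C57BL/6 background, and the TgNotch3R169C line was first made on FVB/N. The transgene lies on the X chromosome and mice of both sexes were studied in that line, but the labels do not give the sex of a mouse, so its part in the spread of Notch3 among TgNotch3R169C mice was not tested. The arteries were dissected from the brain of untreated mice, and stranded libraries were made from poly(A)-selected RNA. The comparison of mutant and control mice shows how far each receptor changed when Notch3 was lost or when mutant Notch3 was added, and whether another receptor rose where Notch3 was lost.

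Notch receptors are single-pass proteins that bind Delta-like and Jagged ligands on neighboring cells. Binding exposes the receptor to cleavage by an ADAM protease and then by γ-secretase, and the freed intracellular domain joins Rbpj and a Mastermind-like protein in the nucleus, where genes of the Hes and Hey families are activated. In arteries, Notch3 is known mainly from smooth muscle cells and pericytes, Notch1 and Notch4 from the endothelium, and Notch2 from smooth muscle, fibroblasts and other cells. Mutations that add or remove a cysteine in the extracellular part of NOTCH3 cause CADASIL, an inherited small vessel disease of the brain.

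The position of the altered arginine shows where the transgenic receptor differs from its relatives. In mouse Notch3 the counterpart is codon 170, and the codons that align with it are number 190 in Notch1, 193 in Notch2 and 203 in Notch4. The coding sequences around it, 51 bases each from GENCODE vM21 transcripts, read 5′ to 3′ as follows, with the aligned codon in capitals.
Notch1: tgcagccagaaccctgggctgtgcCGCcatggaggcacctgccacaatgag
Notch2: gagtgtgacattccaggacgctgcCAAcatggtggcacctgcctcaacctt
Notch3: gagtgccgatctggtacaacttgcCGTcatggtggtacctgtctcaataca
Notch4: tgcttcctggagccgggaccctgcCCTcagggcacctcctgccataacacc
The codon encoded arginine in Notch3 and Notch1 and another residue in Notch2 and Notch4. The sequence of the rat transgene was not used here, so reads of the mouse and rat genes were not separated and all Notch3 values in TgNotch3R169C mice may hold both.

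The coding sequences were 7596 bases long in Notch1, 7422 in Notch2, 6957 in Notch3 and 5895 in Notch4. Between 52.2% (Notch2 and Notch4) and 61.2% (Notch1 and Notch2) of aligned coding bases were identical. The longest run without a mismatch that alignments between these transcripts contained was 24 bases, between Notch2 and Notch3. Notch1 (ENSMUSG00000026923) lies on chromosome 2 and Notch2 (ENSMUSG00000027878) on chromosome 3, whereas Notch3 (ENSMUSG00000038146) and Notch4 (ENSMUSG00000015468) both lie on chromosome 17. Positions are not given, because the submitters' processing notes name the build mm39 and the annotation used here is of GRCm38.

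The libraries held 20289487 to 54481934 counts, and each receptor had at least 450 counts in every library (Notch3 in a Notch3-/- mouse), so counting error was small beside the variation between mice. Levels are given as counts scaled to library size (CPM), with library sizes adjusted by the trimmed mean of M values (TMM), and changes as log2 fold changes with the standard error (SE) of edgeR's quasi-likelihood fit. Adjusted p is the Benjamini-Hochberg value over all genes tested, and a gene was called below 0.05. Markers of smooth muscle, endothelial cells and fibroblasts were detected in every library, with list means of at least 6.62, 7.08 and 8.87 log2 CPM, and markers of brain tissue were present as well (astrocyte list 7.57 or more). Choroid plexus markers averaged above 6 on the log2 CPM scale in 0 Notch3+/+, 1 Notch3-/-, 4 non-Tg and 2 TgNotch3R169C libraries, and pituitary markers reached a mean of 9.28 in 1 Notch3+/+ library against a group median of -0.69. Calls that were lost without the choroid-rich libraries are given with both values.

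Notch2 was the most abundant receptor of brain arteries. CPM divided by the summed exon length in kilobases (RPKM, computed here) was 46.0 ± 3.09 (SD, n = 8) for Notch2 in Notch3+/+ mice, against 8.15 ± 0.885 for Notch1, 10.3 ± 1.49 for Notch3 and 10.6 ± 2.31 for Notch4. Notch2 was highest in each of the 32 libraries, with the summed exon length as with the length of the longest transcript. The other receptors lay close together in the controls, and Notch3 exceeded Notch4 in 4 of 8 Notch3+/+ and 4 of 8 non-Tg libraries by summed exon length. Their order depended on the length used, since annotated exons of Notch1 sum to 14232 bases and its longest transcript to 9488. With the latter, Notch1 was at 12.2 ± 1.33 RPKM in Notch3+/+ mice and second after Notch2 in 6 of 8 non-Tg libraries. Notch3 was last in all 8 Notch3-/- libraries and second in all 8 TgNotch3R169C libraries by both lengths.

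**Figure D1:**
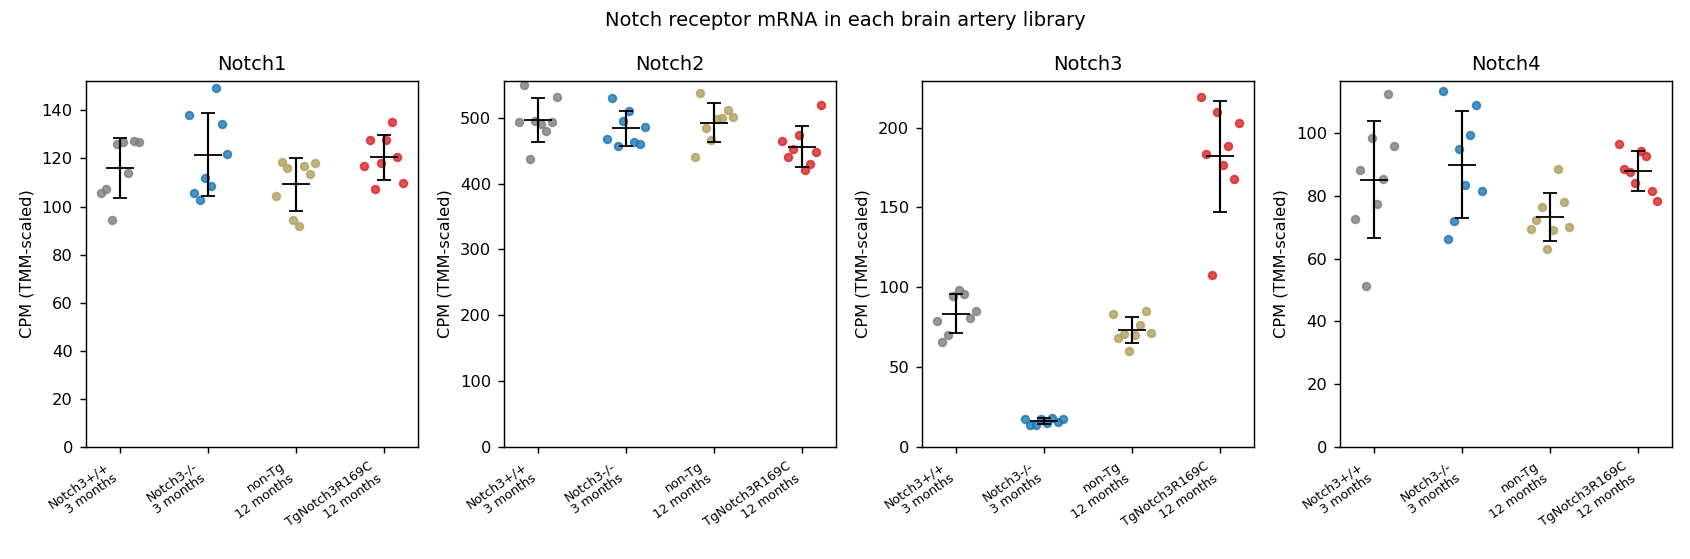
Level of each Notch receptor (CPM on TMM-scaled library sizes, axes starting at 0) in the 8 libraries of each group, with the mean and SD in black. Notch3 lay below every Notch3+/+ library in all 8 Notch3-/- libraries and above every non-Tg library in all 8 TgNotch3R169C libraries, whereas the groups overlapped for Notch1, Notch2 and Notch4.

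Notch3, inactivated in Notch3-/- mice and added as a transgene in TgNotch3R169C mice, was the only one of the 4 called by edgeR in either mutant. The direction of its change was set by the genotypes, so its tests serve as a check of the labels. In Notch3+/+ mice it ranged from 65.8 to 98.1 CPM with a median of 82.8, and in Notch3-/- mice from 13.7 to 18.5 with a median of 16.4. Every Notch3-/- library lay below every Notch3+/+ library. The log2 fold change was -2.37 (SE 0.0924, adjusted p = 1.39e-10, edgeR), or 0.194 times the control level. Of the 17714 genes tested in this comparison, 0.649% were called (0.198% higher and 0.452% lower), and of the 4 receptors 1 was. Counts of Notch3 did not vanish in Notch3-/- mice, where 450 to 633 were assigned per library, and the table does not show on which exons they fall.

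In non-Tg mice Notch3 ranged from 60.1 to 85.02 CPM (median 70.9), and in TgNotch3R169C mice from 108 to 219 (median 186). No library of one group reached the range of the other. The log2 fold change was 1.31 (SE 0.115, adjusted p = 1.75e-05, edgeR), a level 2.48 times that of non-Tg mice, and 0.113% of the 17731 genes tested were called (0.102% higher and 0.0113% lower). Without the 6 choroid-rich libraries of these groups the log2 fold change was 1.21 with an unadjusted p of 2.13e-05 and an adjusted p of 0.0902, so the call was lost although the value was similar. The lowest TgNotch3R169C library, replicate 3, stood at 108 CPM against 168 for the next. Over the 12870 divisions of the 16 mice of a line into groups of 8, an exact two-sided permutation test gave p = 0.000155 for Notch3 in both lines, the smallest value the design allows.

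One gene that resembles Notch3 in sequence was examined, and a search for others was not made. It was picked by name with earlier results of these data known, so its change is given as a description. Gm30232, an annotated gene on another chromosome, shared alignments of 935 and 950 bases with the coding part of the Notch3 transcript. Their identity was 87.8% and 84.6%. A stretch of 60 bases of the 950-base alignment begins at base 4742 of the Notch3 coding sequence. This stretch has 5 mismatches and no gap, so it is nearer than the alignment as a whole. Mismatched bases are in capitals.
Notch3: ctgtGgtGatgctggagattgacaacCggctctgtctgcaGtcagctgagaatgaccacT
Gm30232: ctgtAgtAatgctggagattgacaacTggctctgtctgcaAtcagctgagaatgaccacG
Gm30232 had 1 to 13 counts per library in Notch3+/+, 2 to 9 in Notch3-/-, 2 to 8 in non-Tg and 47 to 161 in TgNotch3R169C mice, so that all TgNotch3R169C libraries lay above the rest. Its log2 fold change in TgNotch3R169C mice was 4.39 (SE 0.342, adjusted p = 8.99e-06, edgeR). Its counts equalled 2.14% of those of Notch3 in TgNotch3R169C and 0.235% in non-Tg mice, and whether they came from the transgene was not tested. Gm17276, which the annotation places on the opposite strand of Notch3, had counts equal to 18.4% of those of Notch3 in Notch3-/- mice, and its own log2 fold change there was -0.05 (SE 0.228, adjusted p = 0.991).

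The change of Notch3 in Notch3-/- mice was accompanied by lower smooth muscle markers. Of 8 markers, which include the contractile proteins Acta2 and Myh11, 6 were called lower, against 0.452% of all genes. The median log2 fold change over the list was -0.63 beside -0.0011 over all genes. Smtn was lower without passing the test (-0.34, SE 0.0956, adjusted p = 0.153, edgeR). The muscle intermediate filament gene Des stood apart at 0.28 (SE 0.0905, adjusted p = 0.296, edgeR). Myh11 fell by 1.04 and Acta2 by 0.63 on the log2 scale (adjusted p = 0.000395 and 0.0190, edgeR). The mean of the list ranged from 7.65 to 8.43 log2 CPM in Notch3+/+ mice and from 7.20 to 7.74 in Notch3-/- mice. In bulk tissue, fewer cells of a type and less RNA per cell cannot be told apart. With this marker mean as a covariate, the log2 fold change of Notch3 was -2.13 (adjusted p = 3.19e-07). In TgNotch3R169C mice 0 of the 8 smooth muscle markers was called and 4 had an unadjusted p below 0.05, all lower, with a median of -0.23.

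Notch1, a receptor of endothelial and many other cells that is required for arterial development, did not pass the test when Notch3 was lost. It ranged from 94.3 to 127 CPM in Notch3+/+ mice (median 119.9) and from 103 to 149 in Notch3-/- mice (median 117). The groups overlapped, with 3 Notch3-/- libraries above every control and 4 of 8 above the control mean. The fold was 1.05 with a 95% interval of 0.927 to 1.19 (adjusted p = 0.942, edgeR). Its log2 fold change of 0.07 was 0.21 with the smooth muscle covariate (unadjusted p = 0.128, adjusted p = 0.791) and ranged from 0.02 to 0.11 without single libraries. In non-Tg mice it ranged from 91.8 to 118 CPM (median 115) and in TgNotch3R169C mice from 107 to 135 (median 119). There 7 of 8 TgNotch3R169C libraries lay above the non-Tg mean and 4 above every non-Tg library. The log2 fold change was 0.14 (SE 0.0626, unadjusted p = 0.0406, adjusted p = 0.679, edgeR), and the exact two-sided permutation test of this gene alone gave p = 0.0505. With the mean of the neuron markers as a covariate it was 0.07 (unadjusted p = 0.182).

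Notch2, which is expressed in smooth muscle beside Notch3, did not pass the test either. It ranged from 438 to 549 CPM in Notch3+/+ mice (median 493) and from 458 to 529.8 in Notch3-/- mice (median 477). All Notch3-/- libraries lay within the range of the controls, and the fold was 0.976 with an interval of 0.914 to 1.04 (adjusted p = 0.946, edgeR). Its log2 fold change of -0.04 was -0.07 with the smooth muscle covariate (unadjusted p = 0.336, adjusted p = 0.881, edgeR). In non-Tg mice Notch2 ranged from 440.3 to 538 CPM (median 499) and in TgNotch3R169C mice from 421 to 519 (median 449.6). The TgNotch3R169C libraries were below the non-Tg mean in all but 1 of 8, and 3 were below every non-Tg library. The log2 fold change was -0.11 (SE 0.0461, unadjusted p = 0.0272, adjusted p = 0.669, edgeR), with an exact two-sided permutation p of 0.0306. Neuron markers had positive log2 fold changes in the same comparison for 8 of 8 genes (median 0.27), of which 0 was called by edgeR, DESeq2 or limma voom and 0 had an unadjusted p below 0.05. The mean of that list ranged from 4.37 to 6.05 log2 CPM in non-Tg and from 5.10 to 6.41 in TgNotch3R169C mice, and with it as a covariate the value of Notch2 was -0.08 (unadjusted p = 0.0860).

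Notch4, a receptor found chiefly in endothelial cells, varied widely among the 3-month-old mice. It ranged from 51.2 to 112.5 CPM in Notch3+/+ mice (median 86.9) and from 66.2 to 113 in Notch3-/- mice (median 89.0). The groups overlapped, with 4 of the 8 Notch3-/- libraries above the control mean and 1 above every control. The fold was 1.06 with an interval of 0.860 to 1.302 (adjusted p = 0.971, edgeR). With the smooth muscle marker mean as a covariate its log2 fold change was 0.41 (unadjusted p = 0.0673, adjusted p = 0.752, edgeR). That mean was itself lower in Notch3-/- mice, at 7.40 against 7.94 log2 CPM. The fit with it therefore does not separate genotype from markers, for Notch4 or the other receptors. With the endothelial marker mean as a covariate the change of Notch4 was -0.01 (adjusted p = 0.989, edgeR).

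At 12 months Notch4 ranged from 63.1 to 88.5 CPM in non-Tg mice (median 71.1) and from 78.4 to 96.4 in TgNotch3R169C mice (median 88.1). All 8 TgNotch3R169C libraries lay above the non-Tg mean and 4 above every non-Tg library, and 1 non-Tg library lay within the TgNotch3R169C range. The log2 fold change was 0.26 (SE 0.0617, 95% interval 0.13 to 0.39), with an unadjusted p of 0.000628 that ranked 55 among the 17731 genes and an adjusted p of 0.201 (edgeR), so the gene was not called. The exact two-sided permutation test of this gene alone gave p = 0.00187. DESeq2 called it, with a log2 fold change of 0.26 and an adjusted p of 0.0335, and edgeR called it when non-Tg replicate 6 was left out (0.30, adjusted p = 0.0445). Of 8 endothelial markers 0 was called, 7 had a positive log2 fold change and the median was 0.07. They ranged from -0.03 for Flt1 to 0.26 for Pecam1 (SE 0.0881, adjusted p = 0.580, edgeR). The mean of the endothelial list ranged from 7.08 to 7.44 log2 CPM in non-Tg and from 7.12 to 7.64 in TgNotch3R169C mice. With this mean as a covariate the change of Notch4 was 0.25 (adjusted p = 0.192, edgeR). With the mean of the neuron markers as a covariate the change of Notch4 was 0.21, the lowest of 13 settings.

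**Figure D2:**
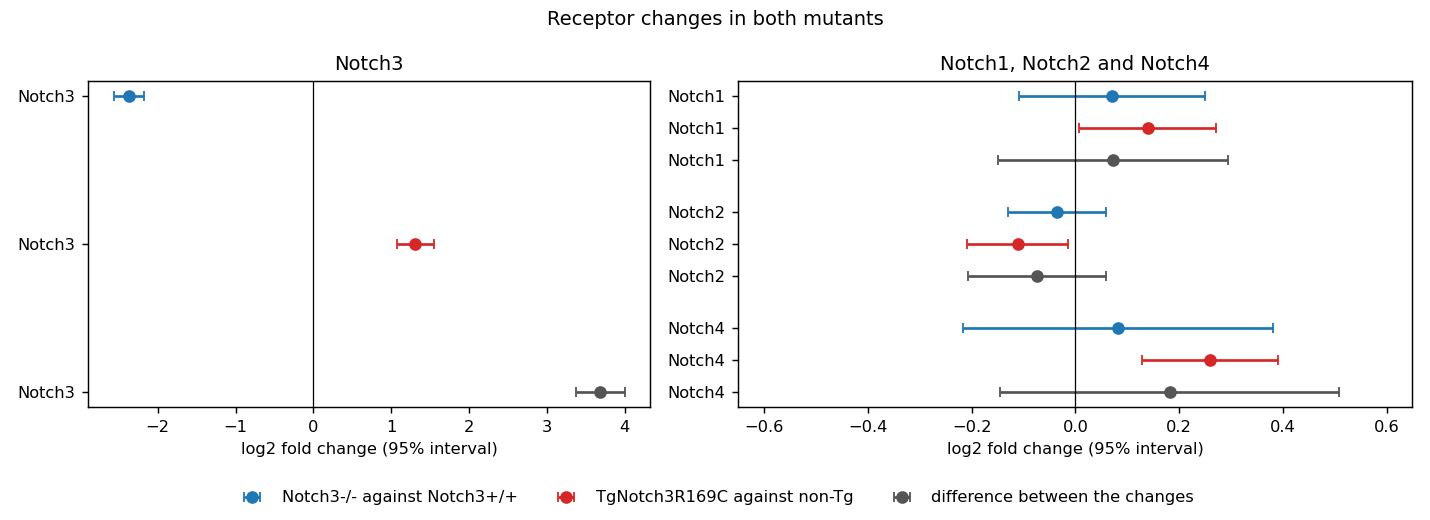
Log2 fold change of each receptor in Notch3-/- mice (blue), in TgNotch3R169C mice (red) and the difference between these changes (gray), with 95% intervals from edgeR. The axes of the panels differ, with Notch3 between -2.37 and 3.68 and the other receptors between -0.11 and 0.26.

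The changes in both mutants were compared in a single fit of the 32 libraries over 18555 genes, of which 0.35% were called (0.264% higher and 0.0862% lower). Notch3 differed by 3.68 (SE 0.154, adjusted p = 3.74e-17, edgeR), in the direction set by the genotypes, and it was the only receptor called. The difference was 0.07 for Notch1 (SE 0.109), -0.07 for Notch2 (SE 0.0651) and 0.18 for Notch4 (SE 0.160), with adjusted p of 0.886, 0.780 and 0.781. The larger change of Notch4 in TgNotch3R169C mice was therefore not distinguished from its change in Notch3-/- mice (interval of the difference -0.15 to 0.51). Line and age differ between these comparisons and cannot be told apart.

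Per length and in bulk RNA, the loss of Notch3 was not matched by a gain in the sum of the other receptors. This sum covers all cells of the dissected tissue. A gain within smooth muscle cells alone, whose markers were lower in these mice, was not tested. Notch3 fell by 8.33 RPKM (SE 0.532) in Notch3-/- mice, while the sum of Notch1, Notch2 and Notch4 was 64.7 in Notch3+/+ and 64.6 in Notch3-/- mice, a difference of -0.168 with an SE of 2.12. The share of Notch3 in the sum of the 4 receptors was 13.8% ± 1.80 (SD, n = 8) in Notch3+/+ and 3.00% ± 0.279 in Notch3-/- mice. In TgNotch3R169C mice Notch3 was 13.4 RPKM higher (SE 1.55), with the sum of the others at 61.6 against 62.4 in non-Tg mice, a difference of -0.788 with an SE of 1.48. Notch3 made up 26.5% ± 3.66 of the sum in TgNotch3R169C and 12.7% ± 1.37 in non-Tg mice. Within the others, Notch2 was 3.38 RPKM lower (SE 1.39) and Notch4 1.80 higher (SE 0.436) in TgNotch3R169C mice.

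**Figure D3:**
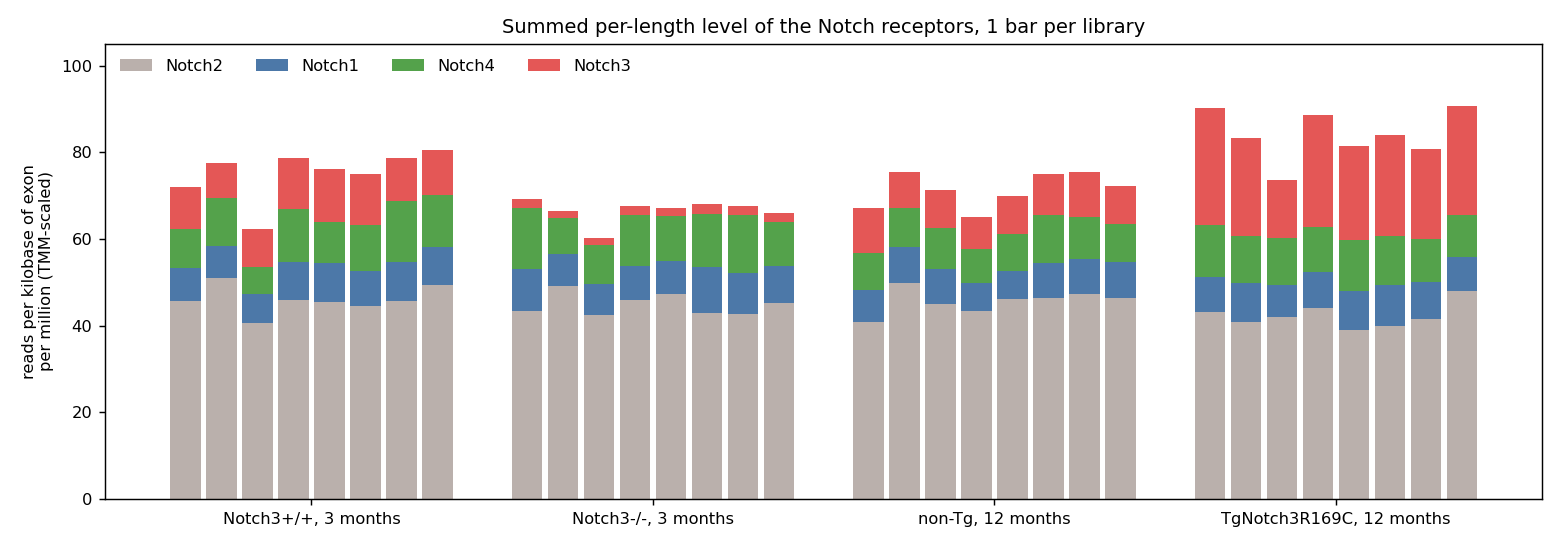
Per-length level of the receptors (RPKM from summed exon length) stacked in 1 bar per library, in order of replicate within each group. The gray, blue and green parts (Notch2, Notch1 and Notch4) reached similar heights in all groups, with group means from 61.6 to 64.7, and the red part (Notch3) was lowest in Notch3-/- and highest in TgNotch3R169C mice.

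Other genes of the pathway were described from lists of ligands, receptor modifiers, proteases, trafficking proteins, nuclear partners and targets, 50 genes in all, of which 49 passed the filter. In Notch3-/- mice 0 of the 49 was called by edgeR and 4 (8.16%) had an unadjusted p below 0.05, near the 7.69% of all genes, with a median log2 fold change of -0.0066. DESeq2 and limma voom also called 0. The smallest p among ligands was that of Jag2, a ligand of endothelial cells, at 97.9 ± 11.6 CPM (SD, n = 8) in Notch3-/- against 81.6 ± 8.99 in Notch3+/+ mice (log2 fold change 0.26, SE 0.0789, adjusted p = 0.214, edgeR). Lfng, a sugar transferase that alters how receptors respond to ligands, was at 42.4 ± 6.97 against 34.8 ± 4.37 CPM (0.28, SE 0.0937, adjusted p = 0.320). Mib2, a ubiquitin ligase that acts on ligands, was at 94.2 ± 2.64 against 88.9 ± 4.78 CPM (0.08, SE 0.0333, adjusted p = 0.497). Among 6 targets, 2 had a positive and 4 a negative log2 fold change, with a median of -0.07. Hey2, a repressor found in arterial smooth muscle and endothelium, had the lowest value (-0.30, SE 0.125, adjusted p = 0.561). Heyl, another target, stood at -0.12 (SE 0.0751, adjusted p = 0.809, edgeR).

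In TgNotch3R169C mice 0 of the 49 pathway genes was called by edgeR, DESeq2 or limma voom, and 2 (4.08%, against 7.27% of all genes) had an unadjusted p below 0.05 by edgeR, with a median of 0.02. These were the targets Heyl, known as a gene activated by Notch3 in vascular smooth muscle, and Hey1. Heyl was at 59.9 ± 11.1 CPM (SD, n = 8) in TgNotch3R169C and 48.4 ± 10.6 in non-Tg mice (log2 fold change 0.31, SE 0.138, adjusted p = 0.679, edgeR). Hey1 was at 22.8 ± 2.74 against 19.7 ± 1.96 CPM (0.20, SE 0.0799, adjusted p = 0.637). All 6 targets had a positive value, from 0.12 for Hes1 (SE 0.117) to 0.38 for Hes5 (SE 0.471), and none of them passed the test. Their median was 0.26 beside -0.0074 over all genes. The 8 smooth muscle markers were all negative there (median -0.23), and the 8 neuron and 8 astrocyte markers all positive (0.27 and 0.16). The 4 canonical ligands tested were also positive, with Dll4, the endothelial ligand, at 0.21 (SE 0.113, adjusted p = 0.704). The 10 genes of receptor cleavage, among them the γ-secretase subunit Ncstn (-0.06, SE 0.0488) and the convertase Furin (-0.06, SE 0.0407), ranged from -0.22 to 0.04. The difference between the changes in both mutants was called for 0 of the 49 genes by edgeR, DESeq2 or limma voom and had an unadjusted p below 0.05 for 6 (12.2%, against 8.62% of all genes), of which Heyl differed by 0.43 (SE 0.163, adjusted p = 0.406) and Hey2 by 0.50 (SE 0.231, adjusted p = 0.555).

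**Figure D4:**
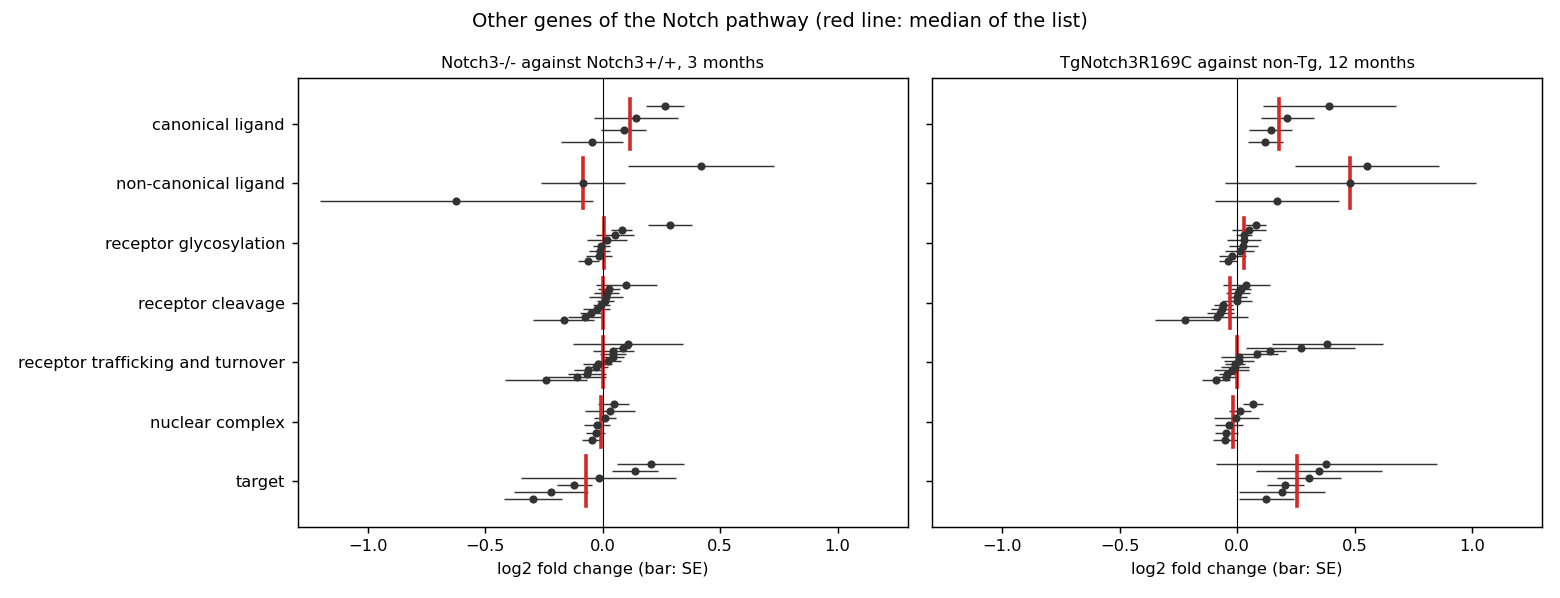
Log2 fold change of the other Notch pathway genes in each mutant, by role, with the SE as a bar and the median of each list as a red line. The median of the targets was -0.07 in Notch3-/- and 0.26 in TgNotch3R169C mice, and 0 of the genes shown passed the test in either.

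Within groups the receptors varied with different genes. After the group mean of log2 CPM was subtracted, Notch4 and Notch1 were correlated over the 32 libraries with Pearson's r = 0.73 and Spearman's rho = 0.72, and within single groups r ranged from 0.49 to 0.83. These libraries share depth and dissection, and the values are a description. Over all libraries Notch4 followed the mean of the endothelial markers (r = 0.59, and 0.73 without the 2 libraries farthest in that mean). Within groups r ranged from -0.16 in TgNotch3R169C mice to 0.95. The 2 farthest libraries were TgNotch3R169C replicates 3 and 5, at 0.27 and -0.26 from the mean of their group. They weigh heavily in any r of that group with these markers, and its r without them was not computed. For Notch1 r was 0.36, and 0.57 without the 2 farthest libraries, with -0.52 (TgNotch3R169C) to 0.87 within groups. Notch2 followed fibroblast markers (0.44) and ran against neuron markers (-0.51). For Notch3 the value was 0.25 with smooth muscle, 0.27 with pericyte and 0.14 with endothelial markers, and without the 2 libraries farthest in each mean it was 0.17, 0.25 and 0.55.

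**Figure D5:**
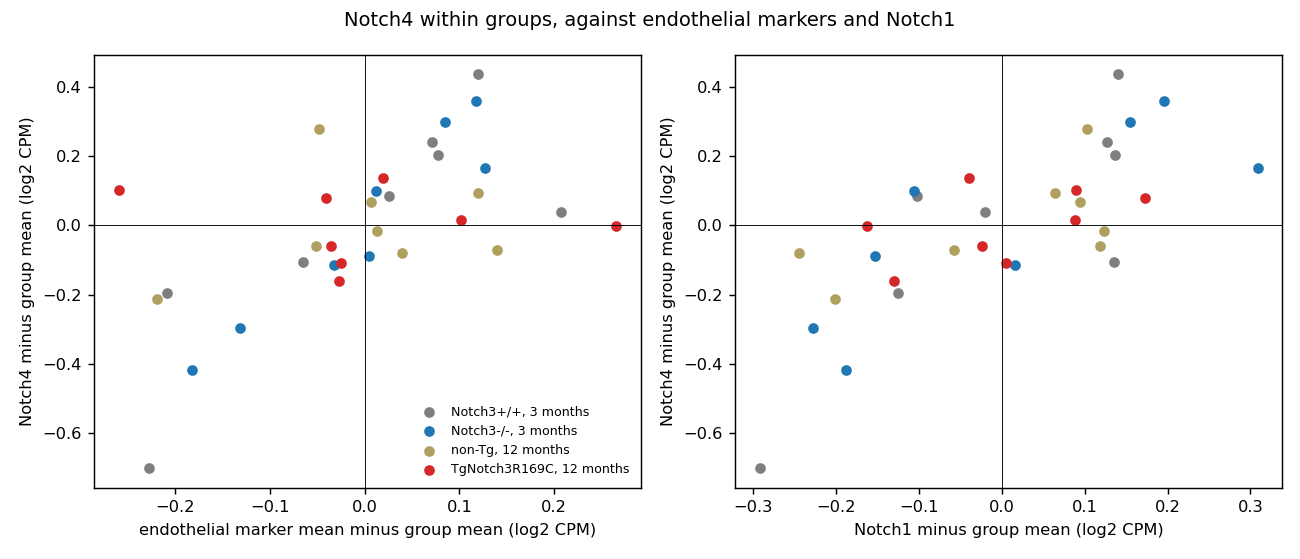
Notch4 against the mean of the endothelial markers (left) and against Notch1 (right), each as log2 CPM minus the mean of its group, 1 point per library colored by group. Over all libraries the points rise from lower left to upper right in both panels, with r = 0.59 and 0.73. In the left panel r was -0.16 among TgNotch3R169C mice, whose replicates 3 and 5 are the points farthest right and farthest left. The lowest Notch4 value belongs to a Notch3+/+ library.

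Of 18554 other genes ranked by this measure, those most like Notch4 were F2rl1, a protease-activated receptor (r = 0.86), and Gja5, a gap junction protein of arterial endothelium (r = 0.84), followed by Ehd4, Ptprm and Atp10a (0.82 to 0.81). Both leading genes rose in TgNotch3R169C mice. F2rl1 ranged from 10.6 to 13.7 CPM in non-Tg mice (median 11.7) and from 13.9 to 19.2 in TgNotch3R169C mice (median 15.7), and the groups did not overlap. Its log2 fold change was 0.46 (SE 0.0756, adjusted p = 0.0189, edgeR). Gja5 ranged from 16.4 to 26.8 CPM in non-Tg (median 20.8) and from 25.6 to 37.8 in TgNotch3R169C mice (median 31.2), with 7 of 8 TgNotch3R169C libraries above every non-Tg library. Its log2 fold change was 0.60 (SE 0.0972, adjusted p = 0.0189, edgeR). F2rl1 was called in 20 and Gja5 in 23 of 29 alternative fits, with log2 fold changes from 0.39 to 0.65 and the highest adjusted p (0.363 and 0.348) where all groups were fitted together. Both lost the call without the choroid-rich libraries (adjusted p = 0.144 and 0.159) and without non-Tg replicate 3 (0.0578 and 0.0574) or 4 (0.05001 for both), and F2rl1 also without TgNotch3R169C replicate 1 (0.0515) or non-Tg replicate 2 (0.0513). In Notch3-/- mice the values were -0.02 for F2rl1 (SE 0.186, adjusted p = 0.997) and -0.40 for Gja5 (SE 0.233, adjusted p = 0.782), and the difference between the mutants' changes had an adjusted p of 0.510 for F2rl1 and 0.103 for Gja5.

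The genes most like Notch1 were Cenpt, Dhx33, Lama3, Lrrfip1 and Dlc1 (r = 0.79 to 0.76), and those most like Notch2 were Tgfbr3, a coreceptor of transforming growth factor β (0.82), Aplp2, Nynrin, Sdk1 and Pygm. Those of Notch2 all had negative log2 fold changes in both mutants, from -0.15 to -0.04, and 0 of the 5 was called. Notch3 had the weakest partners, led by the kinase Cdk9 (0.64) and the thrombin receptor F2r (0.63), and F2r had a log2 fold change of 0.54 in TgNotch3R169C mice that was called by DESeq2 but not by edgeR (SE 0.109, adjusted p = 0.0989). The remaining genes were Styx, Gm37123 and Plscr4. Of its 5 genes 1 was retained when Spearman's rho was used, against 3 for Notch1, 4 for Notch2 and 2 for Notch4.

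The control groups differed in age and line. Between non-Tg mice aged 12 months and Notch3+/+ mice aged 3 months, 7.92% of 17643 genes were called (3.87% higher and 4.05% lower), and none of the receptors was. The log2 fold change was -0.09 for Notch1, -0.02 for Notch2, -0.20 for Notch3 and -0.22 for Notch4, with adjusted p of 0.491, 0.877, 0.180 and 0.285 (edgeR). Without Notch3+/+ replicate 3, the library with the lowest Notch4, the value for Notch4 was -0.30 and the gene was called (adjusted p = 0.0471). All 8 smooth muscle markers fell in this comparison, with a median of -0.78, and a fit with the list mean as covariate gave Notch3 a value of 0.16. Of the 49 pathway genes 2 were called by edgeR and limma voom, both glucosyltransferases that act on epidermal growth factor repeats of Notch receptors. Poglut2 fell by 0.25 (SE 0.0430, adjusted p = 0.00274) and Poglut3 by 0.20 on the log2 scale (SE 0.0465, adjusted p = 0.0154, edgeR). With the smooth muscle covariate neither was called (adjusted p = 0.294 and 0.603), but no gene at all was called in that fit. Poglut3 was not called without the choroid-rich libraries (0.103). Over 29 alternative fits Poglut2 was called in 27 and Poglut3 in 25, and the value of Poglut3 was -0.10 with the endothelial covariate. DESeq2 called 4, the same 2 and Adam17, a protease of the ADAM family, and Rbpj, at -0.18 (SE 0.0560, adjusted p = 0.0554) and -0.14 (SE 0.0464, adjusted p = 0.0679) by edgeR.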

How the data were processed

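For brain arteries of 32 mice, the deposited values are unnormalized counts of reads assigned by the authors to Ensembl genes. RPKM was computed from them here. The submitters' processing notes name bcl2fastq 2.20.0.422, cutadapt 1.10, Bowtie2 2.2.8, STAR 2.5.3a, HTSeq 0.6.1p1 and the build mm39, without their roles. The strand setting of the counting and the annotation release are not given in the sources used here. Of 55357 genes, 16744 had no counts, and 52081 were given a symbol from a table of mouse gene names. No duplicated library was found (chi-square per gene between replicates 10.9 to 149).

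Groups were taken from the genotype and age in the labels. Tests were run with edgeR 4.0.16 under R 4.3.3 (filterByExpr, TMM, glmQLFit, glmQLFTest), fitting the 2 groups compared, or all 4 for the difference between changes. DESeq2 1.42.0 and limma voom (limma 3.58.1) were alternatives. Log2 CPM used a prior count of 2. Lengths and sequences came from GENCODE vM21 (GRCm38), aligned with MAFFT 7.526 and blastn 2.17.0. Exact permutation tests covered 8 comparisons (4 receptors in 2 lines), and no p-value was adjusted over the receptors alone. In simulated data 59% of 1.5-fold changes were recovered among 17578 genes for Notch3-/- and 55.7% among 17575 for TgNotch3R169C mice.

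The receptors and the lists of pathway and marker genes were chosen with earlier results of these data known. Genes named are the receptors, pathway genes called by edgeR in any comparison or with the 2 smallest p of their list, the 5 genes most correlated with each receptor, the 5 tested neighbors on each side of Notch3 and Notch4, and genes that overlap or resemble a receptor. Overlapping genes with few counts and neighbors that were not called are given by counts only, apart from Ephx3. Ephx3, Hes genes, Adam17 and Rbpj were printed after their values were seen. Gm30232 was picked by name with earlier results of these data known, and not by a search of sequences. Alternatives were other normalizations, filters and tools, marker covariates, a block, leaving out each library and, chosen after seeing the data, leaving out the choroid-rich libraries.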

Additional observations from a re-analysis of the deposited data

Results flagged for a closer look

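In the groups of 8, the gap between an extreme library and its neighbor was compared with Dixon's critical value for each receptor, 16 groups in all, and chance exceeds it in about 1 in 20 groups. Notch3 in TgNotch3R169C replicate 3 exceeded it, at 108 CPM with the next library at 168, a gap of 0.538 of the range of the group. Without this library the log2 fold change of Notch3 was 1.39.

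The change of Notch3 differed between the mutants by 3.68 on the log2 scale in the test of the difference itself (edgeR, adjusted p = 3.74e-17). Its direction was set by the genotypes, with Notch3 inactivated in Notch3-/- mice and added in TgNotch3R169C mice, so this is a check of the labels.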

How the results depend on the processing

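Across 13 settings and 16 fits without 1 library, Notch3 was called in 28 of 28 distinct fits for Notch3-/- mice, where leaving out the choroid-rich library equals leaving out replicate 8 (leave-one-out range -2.40 to -2.33) and 28 of 29 for TgNotch3R169C mice (1.27 to 1.39). The exception left out the choroid-rich libraries (1.21, adjusted p = 0.0902), with fewer mice. Notch1 and Notch2 were called in 0 fits of either mutant. Notch4 in TgNotch3R169C mice was called by DESeq2 (0.265) and without non-Tg replicate 6 (leave-one-out range 0.232 to 0.301), and adjusted p otherwise reached 0.574. Its value in Notch3-/- mice changed sign with the endothelial covariate (-0.0087), as did, between the control groups, Notch1 (0.018), Notch2 (0.0176) and Notch4 (0.0609), and Notch2 with the neuron covariate (0.0081). With the smooth muscle covariate Notch3 (0.157) and Notch4 (0.0184) changed sign there. The cause of these shifts was not tested. Without 1 library, Notch2 ranged from -0.0394 to 0.00665 and Notch4 from -0.299 to -0.148 between the control groups.

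The number of genes called in Notch3-/- mice was 115, against 282 with DESeq2, 174 with all groups in 1 fit, 16 with the smooth muscle covariate, and 58 and 181 at thresholds of 0.01 and 0.1. In TgNotch3R169C mice it was 20, against 75 with DESeq2, 10 with the neuron covariate, 2 without the choroid-rich libraries, 5 at 0.01, and 11 to 13 without TgNotch3R169C replicate 1 or non-Tg replicates 3, 4 or 7. For the difference between the changes it was 65, against 153 with DESeq2, 39 without the choroid-rich libraries, and 34 and 115 at the thresholds. Between the control groups it was 1398, against 2362 with DESeq2, 0 with the smooth muscle, 132 with the endothelial and 310 with the choroid plexus covariate, 402 without the choroid-rich libraries, 895 without Notch3+/+ replicate 7, and 343 and 2512 at the thresholds.

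Replicate numbers gave no clear pairing of the mice, although these values cannot exclude one. Correlations of same-numbered libraries ranged from -0.225 to 0.516 for Notch3-/- and -0.164 to 0.336 for TgNotch3R169C mice. Of 8 pairs, 4 and 3 were above 0.1, and 3 and 1 of 8 mutant libraries correlated best with their own number. With the replicate block, Notch3 changed by -2.36 and 1.29 and Notch4 in TgNotch3R169C mice by 0.263 (adjusted p = 0.281), with 97, 6, 63 and 715 genes called in the comparisons in the order above.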

Other observations

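Notch3 and Notch4 lie on the same chromosome, and the genes around each were examined. Of the 5 tested protein-coding genes on each side of Notch3, 1 was called in Notch3-/- mice. This was Wiz, a zinc finger protein, higher by 0.23 on the log2 scale (SE 0.0332, adjusted p = 0.00163, edgeR), and in TgNotch3R169C mice its value was -0.02 (SE 0.0596). With the smooth muscle covariate the value of Wiz in Notch3-/- mice was 0.27 (unadjusted p = 0.000149, adjusted p = 0.0911). Ephx3, an epoxide hydrolase and the nearest tested gene on one side of Notch3, stood at 0.90 in TgNotch3R169C mice (SE 0.239, adjusted p = 0.329 by edgeR, called by DESeq2) and -0.10 in Notch3-/- mice (SE 0.220, adjusted p = 0.9752). Of the 10 neighbors of Notch4, 0 was called in either mutant by edgeR, DESeq2 or limma voom, with 0 in Notch3-/- and 1 in TgNotch3R169C mice at an unadjusted p below 0.05. Between Notch3 and Notch4, 1 of 72 genes tested was called in Notch3-/- mice (1.39%), and this gene was again Wiz. The share was 2.9% for the genes of chromosome 17 and 0.649% for all genes. In TgNotch3R169C mice 0 of 74 was called, against 0.233% and 0.113%.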
